A study of Homo sapiens with 8 samples.

Results

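The 4 HOX clusters were examined here in ChIP-seq peak lists of cohesin (SMC1A), the cohesin loader NIPBL and the Mediator subunit MED1 from GM12878, a lymphoblastoid cell line grown from B lymphocytes. Each factor had 2 libraries, and 2 whole cell extract libraries were pooled as the control of all 6 lists. A peak was a member when it overlapped one of 4 windows on hg19, which were chr7:27100000-27290000 for HOXA, chr17:46570000-46840000 for HOXB, chr12:54300000-54480000 for HOXC and chr2:176920000-177090000 for HOXD. The windows held 139 of 224694 peaks, of which 43 and 52 were from SMC1A replicates 1 and 2, 7 and 6 from NIPBL, and 7 and 24 from MED1. Whether the replicates were separate cultures is not stated in the labels, and their spread may be technical.

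HOX genes encode homeodomain transcription factors that give cells their position along the body axis, and in each cluster the genes lie in the order in which they act along that axis. In cells that do not use them, HOX genes are typically covered by Polycomb proteins, and CTCF sites with cohesin separate used from unused stretches. NIPBL loads the cohesin ring on DNA, and MED1 marks Mediator at active enhancers and promoters. The 38 genes of the clusters are HOXA2 to HOXA7, HOXA9 to HOXA11 and HOXA13, HOXB1 to HOXB9 and HOXB13, HOXC4 to HOXC6 and HOXC8 to HOXC13, and HOXD1, HOXD3, HOXD4 and HOXD8 to HOXD13. In the RefSeq table (GRCh38.p14), positions rise from HOXA2 to HOXA13 and from HOXB1 to HOXB13, but from HOXD13 to HOXD1. In HOXC they rise from HOXC13 to HOXC8 and then to HOXC4, HOXC5 and HOXC6, whose order among themselves was not read. The next genes of that table below and above the listed ones are SKAP2 and EVX1 (HOXA), SKAP1 and TTLL6 (HOXB), CALCOCO1 and SMUG1 (HOXC), and EVX2 and MTX2 (HOXD). Without an hg19 annotation, regions are given by position and were not assigned to single genes, and the cell type was not checked against marker genes.

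The DNA sequence under the peaks was not analysed here, so promoters were read by gene symbol from RefSeq (GRCh38.p14). They show whether HOX promoters carry a CTCF-type motif, the usual stopping place of cohesin. Both strands of the 250 bases before and 50 bases after each start were searched for CCNNNAGNNGGC, a loose form of that motif. Promoters of 20 of the 38 genes were in the table, 27 promoters in all, and the motif was found in 4 of them, or 14.8%, against 10.6% of all 35116 promoters of the table. The share in the table covers 3715 promoters, and the 4 matches among HOX genes are a description and not evidence of binding. The matches are in capitals within their neighbouring bases, 5′ to 3′ on the strand of the gene.
HOXA10: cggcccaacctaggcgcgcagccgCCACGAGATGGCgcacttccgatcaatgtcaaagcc
HOXA11: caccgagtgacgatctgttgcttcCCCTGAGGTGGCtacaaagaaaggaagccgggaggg
HOXD10: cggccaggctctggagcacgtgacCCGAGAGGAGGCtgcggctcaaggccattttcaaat
HOXD1: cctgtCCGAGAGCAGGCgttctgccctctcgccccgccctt
The matches lie on the strand of the gene in all 4 promoters. No peak was placed on these promoters.

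Cohesin was present in all 4 clusters, while NIPBL and MED1 found in both replicates occurred in HOXB and HOXC only. Overlapping peaks of the 2 libraries of a factor were joined, and a joined stretch with a peak from each is called a region. SMC1A regions numbered 37, with 16 in HOXB and 7 each in HOXA, HOXC and HOXD. NIPBL had 5 regions, 4 in HOXB and 1 in HOXC. MED1 had 7 regions, 6 in HOXB and 1 in HOXC. Over the genome there were 51020 SMC1A, 11635 NIPBL and 15007 MED1 regions, so these counts cannot be compared across factors without list length. In the HOXD window none of the 4 NIPBL and MED1 libraries held a peak. In HOXA, NIPBL was limited to 1 peak of replicate 1 and MED1 to 1 peak of replicate 2.

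The share of each list that fell in the windows was highest for SMC1A, at 0.0761% and 0.0762% in replicates 1 and 2. NIPBL had 0.0327% and 0.0391%, and MED1 had 0.0386% and 0.0533%. Both SMC1A libraries lay above the other 4, although the intervals that cover counting error overlap (exact Clopper-Pearson, 95%), with 0.0551 to 0.102% for SMC1A replicate 1 and 0.0341 to 0.0793% for MED1 replicate 2. The SMC1A mean was 0.0762% ± 8.65e-05 (SD, n = 2) and the mean of the NIPBL and MED1 libraries 0.0409% ± 0.00875 (SD, n = 4). Their difference of 0.0352 percentage points had p = 0.0667 and adjusted p = 0.133 over 4 comparisons (two-sided exact permutation test over libraries), where 0.0667 is the smallest p that 2 against 4 can give. Against NIPBL alone the difference was 0.0403 points and against MED1 alone 0.0302 points (exact permutation p = 0.333 each, the smallest that 2 against 2 can give). When each list was shortened to its 15357 strongest peaks, the difference from NIPBL and MED1 was 0.0700 points (p = 0.0667 by the same exact permutation test).

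**Figure D1:**
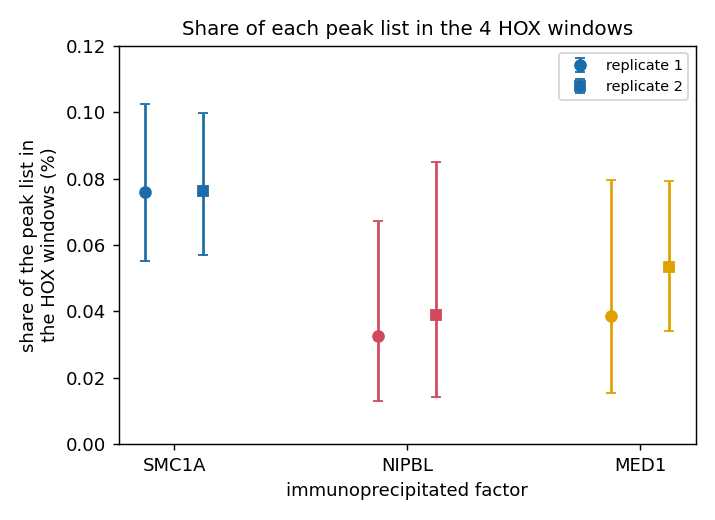
Percent of each peak list that overlaps the 4 HOX windows, by factor and replicate, with bars for the exact binomial interval (95%, counting error alone). The SMC1A points are at 0.0761 and 0.0762, and the other points are at 0.0533 or below.

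HOXD held cohesin alone. Its 7 SMC1A regions spanned 60.6 kb from the first summit to the last, with a median gap of 11.3 kb, and began 24.7 kb into the window. The last 84.6 kb of the window, at the end where gene order reaches HOXD1, held no SMC1A region. The strongest region, at chr2:177005184-177005847, had SMC1A fold enrichments of 25.6 and 30.5 in replicates 1 and 2, where fold enrichment is the deposited signal at the summit over the local control. Counting intervals from the recovered fragments (exact Poisson, 95%, control held fixed) were 21.8 to 29.9 and 26.1 to 35.4, so the replicates overlapped. The next 2 regions, at chr2:176952974-176953402 and chr2:176962098-176962677, had 21.5 and 24.5, and 21.4 and 21.6. The weakest, at chr2:176975985-176976292, still had 8.10 and 8.02. The median over the 7 regions was 21.4 and 20.6, which lay above the medians of 11.6 and 13.1 over all SMC1A regions of the genome without a NIPBL or MED1 peak. The 9 SMC1A regions of the HOXD flanks had medians of 17.9 and 21.0, so the window was not above its flanks in replicate 2. Neighbouring DNA was also poor in the other factors, since 500 kb on each side held no NIPBL peak and 3 MED1 peaks, all of replicate 2.

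Cohesin-rich stretches without NIPBL and MED1 peaks, such as HOXD, were a minority in the genome. The genome was divided into bins as wide as each window. Of 17283 bins of 170 kb, 2016 (11.7%) held at least 7 SMC1A regions, and 39 of these 2016 (1.93%) had no NIPBL or MED1 peak in any of the 4 libraries. The median bin among the 2016 had 23 such peaks over the 4 lists. Of 15466 bins of 190 kb, 2198 (14.2%) held at least 7 SMC1A regions, as HOXA does, and 5.28% of these had as few NIPBL and MED1 peaks as the 2 of HOXA. For HOXC 13.0% of bins held at least 7 SMC1A regions, and 17.3% of these had at most its 7 NIPBL and MED1 peaks. For HOXB 3.21% of bins held at least 16, and 14.3% of these had at most its 35. Counted as regions found in both replicates in place of peaks, the shares of cohesin-rich bins with as few NIPBL and MED1 were larger, at 8.83% (178 of 2016) for HOXD, 9.01% for HOXA, 25.6% for HOXC and 19.2% for HOXB. Bins are neighbours on chromosomes and these shares are descriptions with no test.

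HOXA held 7 SMC1A regions and no region of NIPBL or MED1. The strongest lay at chr7:27235817-27236274, with fold enrichments of 27.9 and 26.1. The next 2 were chr7:27249958-27250349 at 18.0 and 19.5 and chr7:27200212-27200934 at 12.6 and 17.8. For the last of these the counting intervals were 10.4 to 15.1 and 15.1 to 20.8, which met without overlapping. The weakest, at chr7:27176053-27176321, had 5.38 and 7.60. The first of the 7 summits lay 76.2 kb from the window start and the last 14.8 kb from its end, so they lay towards the side of HOXA13. The NIPBL peak of replicate 1 (fold enrichment 4.22) lay 1696 bp from the nearest SMC1A region, and the MED1 peak of replicate 2 (3.55) lay 40230 bp away.

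HOXC combined the strongest cohesin region of all 4 windows with NIPBL. This region, at chr12:54426209-54427552, had SMC1A fold enrichments of 42.2 and 52.8, and its mean percentile within the SMC1A lists was 99.7. NIPBL met it with fold enrichments of 4.12 and 5.49, and the replicate-mean summits of the 2 factors were 38 bp apart. Neither MED1 library had a peak there. Genome-wide, the 1482 SMC1A regions with a NIPBL peak and no MED1 peak had medians of 21.4 and 24, below both values of the HOXC region. The next 2 SMC1A regions by strength, at chr12:54399682-54400564 (21.7 and 30.7) and chr12:54378484-54379160 (12.8 and 12.9), had no peak of the other factors. The one MED1 region of the cluster, at chr12:54411508-54412351, had fold enrichments of 4.54 and 7.43 and lay 3071 bp from the nearest SMC1A region, with no NIPBL peak.

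HOXB held all 3 factors, and its NIPBL and MED1 regions lay in the lower 135 kb of the window. Which HOXB genes lie in the lower and upper 135 kb was not read without an hg19 annotation. All 5 NIPBL peaks of each NIPBL library and all 6 peaks of MED1 replicate 1 were in this stretch, as were 16 of 19 peaks of MED1 replicate 2. SMC1A peaks were also more numerous there, with 14 against 4 in replicate 1 and 23 against 4 in replicate 2. Their strength went the other way. The median SMC1A fold enrichment was 5.38 and 4.80 in the lower 135 kb and 15.1 and 17.2 in the upper 135 kb. The split at the middle was chosen after the positions were known and has no test.

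HOXB held strong cohesin both with and without the other factors. All 8 SMC1A regions without a NIPBL or MED1 peak had fold enrichments of at least 10.0 in replicate 1. The strongest of these, at chr17:46671133-46671599, had SMC1A of 33.6 and 38.2. The strongest of the cluster, at chr17:46569756-46570524, straddled the lower edge of the window, with SMC1A of 39.8 and 40.8. NIPBL had 4.37 and 4.80 there, and MED1 a peak of 7.46 in replicate 2. The third, at chr17:46662233-46663522, had SMC1A of 29.9 and 35.3. It was 1 of 2 places in the windows with regions of all 3 factors, where NIPBL reached 4.73 and 3.91, and MED1 3.17 and 5.70. The other such place had weak cohesin. At chr17:46588341-46588802, SMC1A had 4.97 and 6.45, NIPBL 6.19 and 5.27, and MED1 4.47 and 9.69.

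The other NIPBL and MED1 regions of HOXB met weak cohesin. The fourth NIPBL region, at chr17:46594914-46595473, had NIPBL of 4.20 and 3.77 beside SMC1A of 4.01 and 5.31. MED1 regions at chr17:46620209-46621489, chr17:46639252-46639760 and chr17:46654848-46656482 had MED1 of 3.73 and 8.50, 4.0 and 6.51, and 4.0 and 4.20. SMC1A there had 4.12 and 4.85, 4.24 and 3.46, and 4.74 and 5.08. The last MED1 region, at chr17:46618894-46619860, had 2.74 and 7.62 and met SMC1A of replicate 2 alone, at 4.80. MED1 replicate 2 was the higher of the pair at all 7 MED1 regions of the windows.

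At the places they shared, NIPBL and cohesin spanned different ranges of fold enrichment. Over the 5 NIPBL regions the fold enrichment ran from 4.12 to 6.19 in replicate 1 and from 3.77 to 5.49 in replicate 2. At the same 5 places SMC1A ran from 4.01 to 42.2 and from 5.31 to 52.8. Within its own lists NIPBL also varied, from percentile 58.5 to 91.2 in replicate 1 and from 37.8 to 83.7 in replicate 2. Replicate-mean summits of NIPBL and SMC1A lay 15 to 69.5 bp apart. All 5 NIPBL regions overlapped SMC1A (100%, exact interval 47.8 to 100), against 62.4% of all NIPBL regions and 6 of 14 in the flanks. Of the 7 MED1 regions 5 overlapped SMC1A (71.4%, 29.0 to 96.3), against 52.2% of all MED1 regions and 8 of 20 in the flanks. Both intervals hold the share of the genome.

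Seen from cohesin, partners were about as frequent as in the genome. Of the 37 SMC1A regions 5 overlapped a NIPBL region (13.5%, exact interval 4.54 to 28.8), against 14.3% of all SMC1A regions. Likewise 5 overlapped a MED1 region (13.5%, 4.54 to 28.8), against 17.5%. With peaks of single libraries included, 28 of 37 (75.7%) met no NIPBL or MED1 peak, against 66.9% in the genome and 73 of 101 (72.3%) in the flanks. The clusters were uneven, since all 7 in HOXA and all 7 in HOXD stood without partners, with 6 of 7 in HOXC and 8 of 16 in HOXB.

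SMC1A regions without partners had higher medians than those with a MED1 peak alone. The 28 SMC1A regions without partner peaks had median fold enrichments of 13.5 and 17.6, from 5.38 to 33.6 in replicate 1. The 3 with a MED1 peak alone had 4.12 to 5.78 in replicate 1 and 2.59 to 5.08 in replicate 2, so in replicate 2 all 28 lay above these 3, while in replicate 1 the ranges overlapped. The 5 regions with both NIPBL and MED1 peaks were split, with 3 between 4.01 and 4.97 in replicate 1 and the other pair at 29.9 and 39.8. The corresponding genome medians were 11.6 and 13.1 without partners, 6.16 and 7.49 with MED1 alone, and 4.48 and 5.40 with both. No test was made, since neighbouring regions of one library are not replicates.

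**Figure D2:**
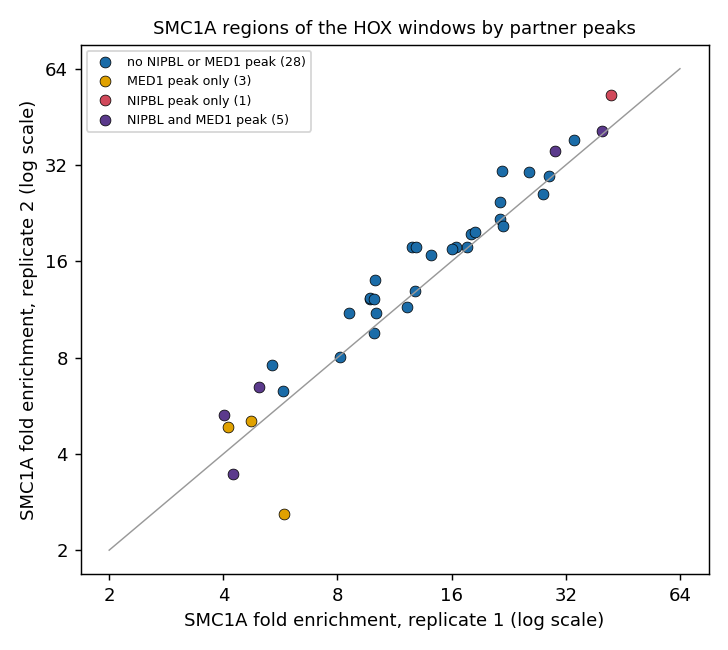
SMC1A fold enrichment of the 37 regions in replicate 2 against replicate 1 (log axes, line of equality in grey), coloured by the NIPBL and MED1 peaks of any library that overlap them. The region with NIPBL alone sits highest, at 42.2 and 52.8, and the 3 with MED1 alone sit at 5.78 or below in replicate 1.

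The SMC1A replicates matched closely in position. Summits of the 2 libraries lay a median of 11 bp apart over the 37 regions, and at most 187 bp. Fold enrichment was higher in replicate 2 at 30 of 37 regions. Peaks found in 1 replicate were weak, with 5 in SMC1A replicate 1 at 3.15 to 4.72 and 15 in replicate 2 at 2.90 to 5.14. MED1 replicate 2 had 17 peaks with no partner in replicate 1, at 3.07 to 7.46. This was not particular to the windows. Stretches of MED1 replicate 2 alone were 17 of 24 in the windows and 76 of 97 in the flanks. Over the genome the replicate 2 list held 45046 peaks and the replicate 1 list 18131. NIPBL had 2 such peaks in replicate 1 and 1 in replicate 2. Of these, 2 lay side by side in HOXB without overlapping, at chr17:46639261-46639497 (3.26, replicate 1) and chr17:46639518-46639743 (3.46, replicate 2).

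Flanks of 500 kb on each side were compared with the windows in each library. Counted as peaks, SMC1A was denser in the window than in both flanks together in every cluster and in both libraries. In HOXD it had 4.12 and 4.71 peaks per 100 kb in the window and 1.00 and 1.00 in the flanks, and in HOXA 4.74 and 3.68 against 1.00 and 1.10. HOXB had 6.67 and 10.0 against 4.80 and 6.10, and HOXC had 5.00 and 5.56 against 3.90 and 4.50. Counted as regions found in both replicates, HOXC did not stand above its flanks, with 3.89 per 100 kb in the window, 3.90 in the flanks together and 5.00 in the upper flank. The other clusters had 3.68 against 0.90 (HOXA), 5.93 against 4.40 (HOXB) and 4.12 against 0.90 (HOXD). In HOXD the 2 flanks differed, with 1 SMC1A region on the side of EVX2 and 8 on the side of MTX2.

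Pooled over the clusters, NIPBL was denser in the windows in both libraries, with 0.864 and 0.741 peaks per 100 kb against 0.65 and 0.525 in the flanks. Regions of NIPBL found in both replicates had 0.617 against 0.35 per 100 kb. By cluster the peak densities differed less. HOXB had 1.85 and 1.85 NIPBL peaks per 100 kb in the window and 1.90 and 1.60 in the flanks, and HOXC had 0.556 and 0.556 against 0.60 and 0.50. Pooled MED1 was also denser in the windows, at 0.864 and 2.96 peaks per 100 kb against 0.675 and 2.40 in the flanks. Its regions found in both replicates had 0.864 against 0.50 per 100 kb. In HOXC alone MED1 was less dense in the window, at 0.556 and 2.22 against 0.70 and 4.10. In HOXB it was denser, at 2.22 and 7.04 against 2.00 and 4.90. Where the window and the flanks both held next to no peaks, as for NIPBL in HOXA and HOXD, no ratio was read.

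**Figure D3:**
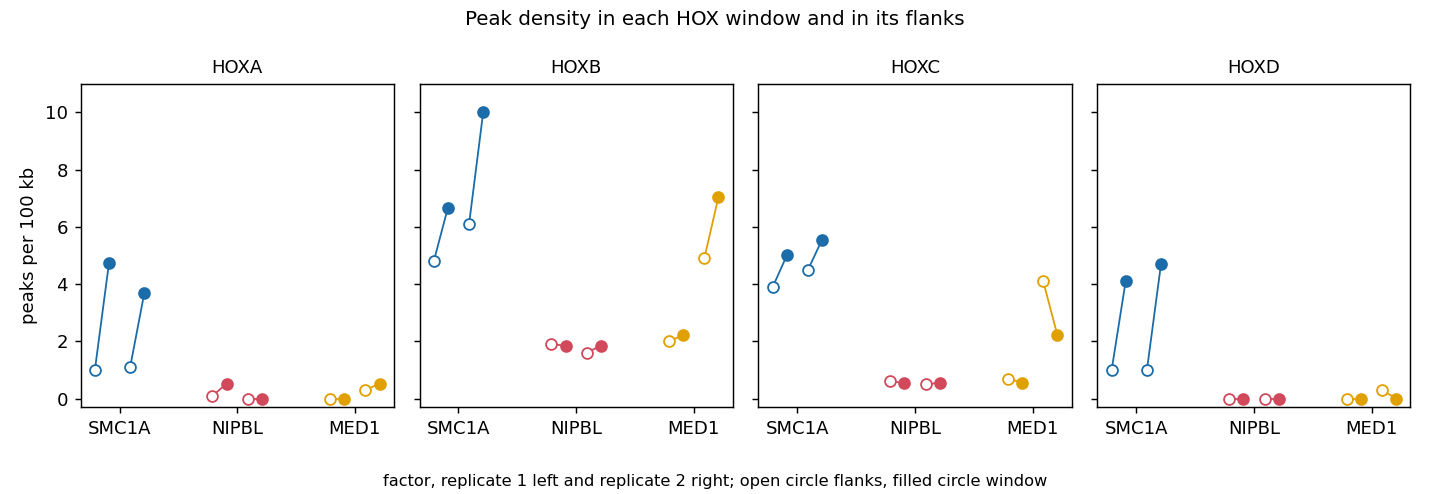
Peaks per 100 kb in the flanks (open circles, 500 kb on each side) and in the window (filled circles), by factor and cluster, replicate 1 left and replicate 2 right. SMC1A peaks are denser in the window than in the pooled flanks, by least in HOXC, where regions found in both replicates are not (3.89 against 3.90), and MED1 peaks are less dense there in HOXC.

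Pooled over the 4 clusters, the log2 ratio of window to flank density was 1.01 ± 0.018 (SD, n = 2) for SMC1A and 0.45 ± 0.11 (SD, n = 4) for NIPBL and MED1, with 0.5 peaks added to each count. The difference of 0.56 had p = 0.0667 and adjusted p = 0.133 (two-sided exact permutation test over libraries), the smallest p this design allows being 0.0667. Its size rested on settings. The difference was 0.07 with only peaks of −log10 q of at least 5 (exact permutation p = 0.667), 0.25 with lists shortened to the same length (exact permutation p = 0.267), 0.97 with flanks of 200 kb and 0.92 without the HOXB window (exact permutation p = 0.133). By cluster, the adjusted exact permutation p was 0.80 in HOXB and 1.00 in HOXA, HOXC and HOXD, and the HOXA and HOXD values rest on the added 0.5 peaks where counts were 0.

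The highest NIPBL and MED1 values lay in the flanks. Above HOXB, the MED1 region at chr17:47294908-47297377 had fold enrichments of 12.1 and 25.3, and it held the strongest NIPBL region of these flanks, at chr17:47295309-47295939 (6.26 and 5.15). The strongest SMC1A peaks that overlapped it had 15.6 and 20.4. Below HOXC, the strongest NIPBL region of its flanks, at chr12:54019938-54020175, had 6.48 and 5.47 and met MED1 of replicate 2 alone (7.81), with no SMC1A peak. The strongest MED1 region of these flanks, at chr12:54144574-54145862, had 4.57 and 9.86, with NIPBL of 3.58 and 3.32 and no SMC1A peak. The flanks of HOXA and HOXD held no NIPBL or MED1 region found in both replicates.

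Depth was read from fragment counts solved from each peak's fold enrichment and p-value. At SMC1A summits in the windows these ran from 13 to 212 in replicate 1, and the median local control estimate was 4.04 in the windows and 4.14 over the list. For NIPBL replicate 1 these control medians were 4.95 and 6.63, and for MED1 replicate 1 7.50 and 7.50. The fewest fragments behind any peak in a list were 7 to 11, so weaker NIPBL or MED1 signal in HOXA and HOXD was not detectable at this depth.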

How the data were processed

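Peak lists of 6 ChIP libraries were analysed, and the 2 whole cell extract libraries entered only through the authors' calls. MACS2 2.1.0, BWA 0.7.12, Trimmomatic 0.33 and hg19 are listed in the submitters' processing notes, with no settings. Per the labels, each ChIP library was called alone against both pooled extracts. Fold enrichment as deposited is a linear ratio, summit signal over local control. Fragments and control estimates were solved from the deposited fold enrichment and −log10 p-values together, with control error ignored. The deposited −log10 q-values served the stricter setting of at least 5. The deposited score was not used, and the deposited summit offset in bp gave summit positions. Only peaks on the autosomes and X were kept, which left out 12 to 58 per list.

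Members and lists were chosen with earlier results of these data known. An overlap of 1 bp counted. Libraries were compared by two-sided exact permutation tests with Benjamini-Hochberg adjustment. Named were the 3 strongest SMC1A regions per window (mean percentile of fold enrichment), every NIPBL or MED1 region in a window, and the strongest of each in the flanks of each cluster. The planned checks of cofactor and cell type genes were not run because no hg19 annotation was used. Python 3.11.15, numpy 2.4.6, pandas 2.3.3 and scipy 1.17.1 were used, and the steps were tested on simulated data. The bins, lower and upper parts of the windows and leave-one-window-out values were added after the data were seen.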

Additional observations from a re-analysis of the deposited data

How the results depend on the processing

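The SMC1A excess in share of the list kept its direction under every alternative run, with 1 library left out ranging from 0.0371 to 0.0435 points against NIPBL, from 0.0229 to 0.0375 against MED1 and from 0.0325 to 0.0394 against both, and the log2 density difference from 0.51 to 0.60. With the replicate number as a block the differences were 0.0403, 0.0302, 0.0352 and 0.56, each with exact permutation p = 0.50, the smallest that 2 pairs give. Libraries of the same number did not deviate together over 1 Mb bins (r = 0.0959 for SMC1A with NIPBL, -0.0908 for SMC1A with MED1 and -0.131 for NIPBL with MED1). Such correlations between lists of different factors cannot show whether these libraries shared a culture or preparation, which was not tested. With 1 library left out, regions numbered 43 to 52 for SMC1A, 6 to 7 for NIPBL and 7 to 24 for MED1, the 24 being MED1 replicate 2 alone. Found in either replicate, they numbered 57, 8 and 24. Lists shortened to the same length left 16 SMC1A and 4 MED1 regions and 0% of SMC1A regions with MED1, with fewer peaks entering by construction. Without the HOXB window, chosen after seeing the data, 21 SMC1A, 1 NIPBL and 1 MED1 regions were left and 0% of SMC1A regions met MED1. The share of SMC1A regions with NIPBL ran from 9.62 to 16.2% and with MED1 from 10.8 to 21.6% with 1 library left out. Of 95 alternative values 11 moved, by over 1.5 times for a count or beyond the binomial interval for a share. Counts and shares cannot change sign, and no difference with a test changed sign. Those differences were judged by sign and by a p threshold of 0.05 alone. The smallest exact permutation p these designs could give was 0.0667, so the threshold could not be crossed. The tally of 95 therefore does not show that the log2 density difference was stable. That difference fell from 0.56 to 0.07 with the stricter q and to 0.25 with lists of the same length. Peak lists show only what passed the caller, and 7 to 11 fragments were the least that did.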
